A study of Mus musculus with 5 samples.

Results

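Of the 4688 positions that the authors listed as differently methylated between G5 and G0 mice, 49 were assigned to chemosensory receptor genes, that is, to a gene whose symbol begins with Olfr, Vmn, Taar, Tas1r or Tas2r. They covered 48 CpGs and named 26 genes on 13 chromosomes, with 25 positions listed as higher and 24 as lower in G5. The measurement was reduced representation bisulfite sequencing, which reads cytosine methylation in the CpG-rich fragments that the enzyme MspI cuts out at CCGG. DNA came from common myeloid progenitors, bone marrow cells that give rise to granulocytes, monocytes, red cells and platelets, sorted by flow cytometry. There were 3 pools of G0 mice, labelled normal and TERTER/+, and 2 pools of G5 mice, labelled as having short telomeres and TERTER/ER, all on a mainly C576BL/6 background. Both groups thus carry the TERTER allele, a telomerase fused to the oestrogen receptor. The sources used here state neither sex nor age. Each pool held 14000 to 30000 cells, and the design text gives 29 to 38 M reads per sample with about 63% aligned. How many reads stand behind each percent is unknown, and the sort could not be checked against marker genes because RNA was not measured in these samples.

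Odorant receptors (Olfr), vomeronasal receptors of the first and second class (Vmn1r, Vmn2r), trace amine receptors (Taar) and taste receptors (Tas1r, Tas2r) are G-protein coupled receptors of the nose, the vomeronasal organ and the tongue. The odorant and vomeronasal genes lie in large clusters on many chromosomes, and a sensory neuron transcribes very few of them. They are not known for a role in myeloid progenitors, and their promoters are mostly poor in CpGs. In the RefSeq promoters (GRCm38.p6, 300 bases each) the receptor families had a median of 1 CpG over 1317 promoters, against 7 over all 32851 promoters, and 405 receptor promoters (30.8%) had 0, against 5.43% of all.

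The place most densely listed in a RefSeq receptor promoter was a start site of Vmn2r29, a vomeronasal receptor gene of the second class on chromosome 7. RefSeq gives this gene 2 promoters 30961 bp apart on the minus strand of GRCm38.p6, and they are shown because they differ in CpG content. The upstream promoter (chr7:7278240-7278539) belongs to a non-coding transcript of the gene and holds 23 CpGs, the most of any receptor promoter in the table. The downstream one (chr7:7247279-7247578) begins where GENCODE starts Vmn2r29 itself and holds 0 CpGs. The third sequence lies downstream of the first start site (chr7:7277751-7277830). Capitals mark the CpGs listed as lower in the first and as higher in the third sequence.
Vmn2r29 upstream promoter: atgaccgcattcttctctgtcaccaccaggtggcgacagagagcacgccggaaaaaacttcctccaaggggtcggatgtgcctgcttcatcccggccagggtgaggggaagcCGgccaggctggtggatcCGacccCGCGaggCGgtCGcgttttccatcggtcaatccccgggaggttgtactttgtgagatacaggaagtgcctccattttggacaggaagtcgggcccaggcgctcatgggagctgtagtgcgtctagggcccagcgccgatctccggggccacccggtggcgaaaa
Vmn2r29 downstream promoter: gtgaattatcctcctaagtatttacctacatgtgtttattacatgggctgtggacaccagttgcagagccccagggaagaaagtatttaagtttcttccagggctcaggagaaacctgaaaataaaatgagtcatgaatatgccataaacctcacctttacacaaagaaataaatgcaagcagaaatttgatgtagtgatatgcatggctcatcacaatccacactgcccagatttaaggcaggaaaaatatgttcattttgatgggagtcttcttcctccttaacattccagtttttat
Vmn2r29 block past the start site: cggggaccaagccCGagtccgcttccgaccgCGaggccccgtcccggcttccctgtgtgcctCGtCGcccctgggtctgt

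Most receptor names in the tables did not mark a position inside a receptor gene. The authors assigned each position to a start site, with no limit on distance seen in the tables, and by the RefSeq gene spans 8 of the 49 positions lay inside the gene named, in Vmn2r29, Olfr1419, Vmn2r6 and Vmn2r-ps11. By GENCODE M21 only 3 did, in Olfr1419 and Vmn2r6, since GENCODE places the downstream Vmn2r29 positions in an intron of Gm45844 and the Vmn2r-ps11 position in an intron of Vmn2r7 and of the transcript Gm26939. A coding exon of another gene, Btnl9, held 10 positions assigned to Olfr1394, and 25 positions lay in no GENCODE gene. The median distance to the assigned start site was 9347 bp, against 7744 bp over all listed positions, with a largest distance of 84003 bp, at Vmn1r72. The authors' flag for promoters was set on 12 of the positions (24.5%, against 28% of all listed) and that for CpG islands on 19 (38.8%, against 36.5%). Of the 19 island positions, 10 were assigned to Olfr1394, 8 to Vmn2r29 and 1 to Olfr153. Of the 12 promoter positions, 10 were assigned to Vmn2r29 and 2 to Olfr1419. Without Olfr1394 and Vmn2r29, 2 of the 29 other positions carried the promoter flag (6.90%), and the median distance was 13140 bp. The promoter flag reached 997 bp downstream of start sites in the files, although the design text ends the window at 500 bp, and the Olfr1419 positions carry it at 710 and 808 bp.

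Receptor-assigned positions listed as higher averaged 45.4% ± 2.80 (SD, n = 3) over the G0 pools and 67.3% ± 5.27 (SD, n = 2) over the G5 pools. Those listed as lower averaged 74.9% ± 2.68 (SD, n = 3) and 53.7% ± 3.99 (SD, n = 2). The median absolute difference was 18.7 points at the higher and 19.5 points at the lower positions, and it was 16.3 points in both directions over all listed positions. All positions of the tables had been chosen by the authors on these same pools, so the separation of the groups was built in. The G5 pools lay beyond all G0 pools at 22 of the 25 higher positions (88.0%), where the background over all listed higher positions was 86.9%. At the lower positions this held for 17 of 24 (70.8%), with a background of 83.9%. A moderated test by limma on the percents of all 4688 positions, with Benjamini-Hochberg adjustment, called 10 higher receptor positions, where 33.2% of all listed higher positions were called. It called 11 lower ones, where 33.0% of all listed lower positions were called. The smallest adjusted p among receptor positions was 0.0413, in limma. When 1 G0 pool was left out, 0 receptor positions passed, as did 0 to 9 of all 2618 higher and 0 of all 2070 lower positions. At an unadjusted p under 0.05 these limma fits held 9 to 14 higher and 11 to 12 lower receptor positions. The fit on all 5 pools held 16 and 17, and 1799 of all 2618 higher and 1359 of all 2070 lower positions. When G5 pool 2 was left out, limma called 3 higher and 6 lower receptor positions, while 29.9% and 29.5% of all listed positions were called. When G5 pool 1 was left out it called 11 and 12, with 32.2% and 34.2% of all listed positions called. On a logit scale, 6 of the calls did not pass, at Vmn1r13, Vmn2r30, Vmn2r62, Vmn1r53 (90233316) and Olfr1394 (49169350 and 49169526).

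**Figure D1:**
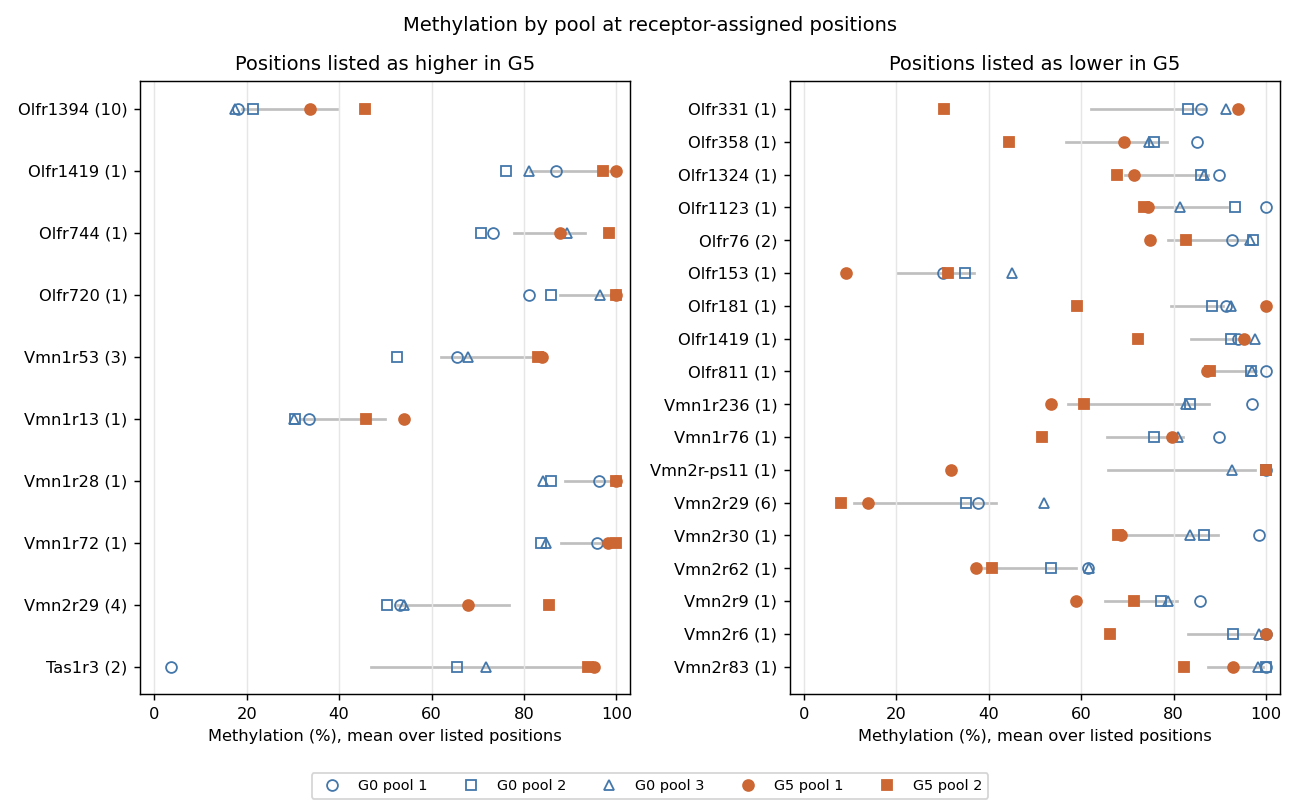
Mean methylation of the listed positions of each receptor gene in each pool, in percent, with the number of positions in brackets. Open symbols are the 3 G0 pools, filled symbols the 2 G5 pools, and grey lines join the group means. The lower Vmn2r29 positions stand at 35.2% to 52.0% in G0 and at 13.8% and 8.0% in G5, while at Olfr331 and Vmn2r-ps11 a single G5 pool lies away from all others.

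Upstream of the assigned RefSeq start site of Vmn2r29, 6 positions between -138 and -103 bp (chromosome 7, 7278391 to 7278426) fell in G5. By GENCODE they lay in no gene, 102 to 137 bp from the coding gene Gm45844 and 31063 to 31098 bp from the nearest receptor gene. Averaged over the 6, the G0 pools stood at 37.8%, 35.2% and 52.0% and the G5 pools at 13.8% and 8.0%. Both G5 pools were below every G0 pool at all 6 positions, where this held for 83.9% of all listed lower positions. G0 pool 3 was the highest of the 5 pools at each of the 6. The means were 41.7% ± 9.04 (SD, n = 3) and 10.9% ± 4.12 (SD, n = 2), a difference of -30.8 points. All 6 passed limma with adjusted p from 0.0413 to 0.0444, where 33.0% of all listed lower positions passed. The 6 CpGs span 37 bp, so they share fragments and reads. With single pools left out the difference ran from -34.0 to -25.6 points.

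Only 575 bp further along, 4 positions 475 to 526 bp downstream of the same start site (7277764 to 7277815) were listed in the opposite direction. Their pool means were 53.2%, 50.4% and 54.1% in G0 and 67.9% and 85.5% in G5. At each of the 4 both G5 pools were above all G0 pools, where this held for 86.9% of all listed higher positions. The difference was 24.1 points, from 52.6% ± 1.96 (SD, n = 3) to 76.7% ± 12.5 (SD, n = 2), and it was 15.3 points without G5 pool 2. Limma passed 1 of the 4, at position 7277764 (adjusted p = 0.0464), against 33.2% of all listed higher positions. At 7277764 the G0 pools had 61.1%, 60.0% and 76.8% and the G5 pools 93.1% and 86.7%. At the other 3 the level of G5 pool 1 was closer to the G0 pools than to G5 pool 2.

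**Figure D2:**
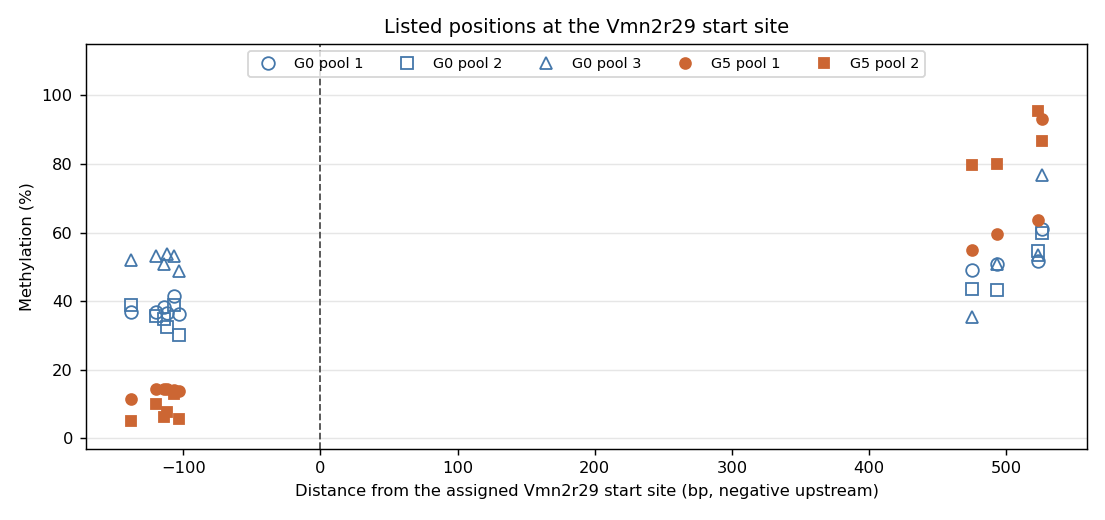
Methylation in percent at the 10 listed Vmn2r29 positions against distance from the assigned start site in bp, with the dashed line at the start site. Open symbols are G0 pools and filled symbols G5 pools. The 6 upstream positions are lower in both G5 pools, and at the 4 downstream positions both G5 pools are above the G0 pools.

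In the same cluster, Vmn2r30 had 1 position 21808 bp upstream of its start site (7359300), in an intron of the GENCODE gene Gm45783. It stood at 98.5%, 86.6% and 83.5% in the G0 pools and at 68.7% and 67.9% in the G5 pools, a fall of 21.2 points (limma, adjusted p = 0.0460). Its 50-base sequence after bisulfite conversion occurs 5 times in the genome, so reads of that length cannot be assigned to 1 copy. Between them lay 2 positions of Clcn4-2, a chloride and proton exchanger gene, at 7300824 and 7300851, which were listed as higher. They stood at 3.59% ± 3.28 and 25% ± 4.51 (SD, n = 3) in G0 and at 15.3% ± 4.31 and 40.4% ± 2.66 (SD, n = 2) in G5.

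The other dense block carried the name of the odorant receptor gene Olfr1394 but lay in a CpG island within a coding exon of Btnl9, which encodes a butyrophilin-like membrane protein. Its 10 positions were 9185 to 9527 bp downstream of the Olfr1394 start site (chromosome 11, 49169199 to 49169541). No listed position bears the name Btnl9. The stretch that holds 9 of the 10 CpGs is shown for its CpG density (chr11:49169335-49169554, plus strand of GRCm38.p6), with the listed CpGs in capitals. It has 26 CpGs in 220 bases and 4 CCGG sites.
Btnl9 coding exon: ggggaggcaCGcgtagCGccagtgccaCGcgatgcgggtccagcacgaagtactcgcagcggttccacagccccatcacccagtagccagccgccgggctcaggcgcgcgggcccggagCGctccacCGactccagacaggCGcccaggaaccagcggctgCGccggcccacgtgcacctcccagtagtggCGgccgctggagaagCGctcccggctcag

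All 10 positions were listed as higher in G5. Over the block the G0 pools stood at 18.1%, 21.3% and 17.5% and the G5 pools at 33.7% and 45.6%. The G5 pools were above the G0 pools at 8 of the 10 positions, where 86.9% of all listed higher positions had the groups apart. The block mean went from 19% ± 2.01 (SD, n = 3) to 39.6% ± 8.45 (SD, n = 2), a difference of 20.7 points. Where 33.2% of all listed higher positions were called, limma passed 4 of the 10, at 49169343, 49169350, 49169361 and 49169526. The first of these had 9.62%, 13.6% and 10.8% in the G0 pools and 45.7% and 39.1% in the G5 pools (limma, adjusted p = 0.0413). At position 49169199 G5 pool 1, with 19.3%, lay among the G0 pools at 21.3%, 16.7% and 11.9%, while G5 pool 2 stood at 49.5%. The same was seen at 49169541, where G5 pool 1 had 28.5% and G5 pool 2 had 52.7%. Without G5 pool 2 the block difference was 14.7 points.

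**Figure D3:**
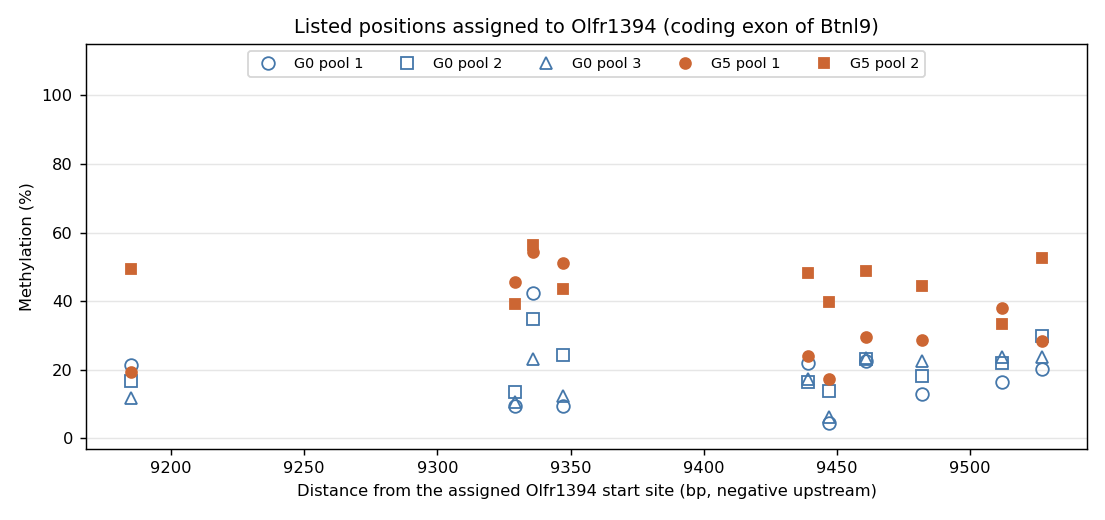
Methylation in percent at the 10 positions assigned to Olfr1394, against distance in bp downstream of the Olfr1394 start site. Open symbols are G0 pools and filled symbols G5 pools. All G0 values are at or below 42.3%, and G5 pool 2 lies above the G0 pools at all 10 positions.

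Among odorant receptor genes, Olfr1419 was the only gene with listed positions in its own coding sequence. They were 97 bp apart on chromosome 19 and were listed in opposite directions. The coding stretch is shown on the minus strand, along which Olfr1419 is read (chr19:11870391-11870530, GRCm38.p6), with both CpGs in capitals, the first at position 11870505 as listed in the table on higher levels.
Olfr1419 coding exon: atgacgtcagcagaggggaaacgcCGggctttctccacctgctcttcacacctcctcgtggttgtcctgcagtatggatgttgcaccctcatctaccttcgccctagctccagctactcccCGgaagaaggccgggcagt

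At position 11870505, 710 bp past the start site, the G0 pools stood at 87.0%, 76.1% and 81.1% and the G5 pools at 100% and 97.2%. Both G5 pools were above all G0 pools, and the rise from 81.4% ± 5.44 (SD, n = 3) to 98.6% ± 1.99 (SD, n = 2) passed limma (adjusted p = 0.0469). At position 11870407, 808 bp past it, the G0 pools had 93.9%, 92.5% and 97.6% and the G5 pools 95.3% and 72.3%. Here G5 pool 1 lay within the G0 range and G5 pool 2 alone was low, and the difference of -10.8 points did not pass (limma, adjusted p = 0.195). Without G5 pool 2 it was 0.689 points.

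In the same odorant receptor cluster, 2 positions 32161 and 32175 bp upstream of Olfr76 (12152834 and 12152848) averaged 92.7%, 97.2% and 96.5% in the G0 pools and 75% and 82.7% in the G5 pools. The groups were apart at both, and the first fell by 19.1 points (limma, adjusted p = 0.0438). The second differed by -14.2 points, or by -8.25 without G5 pool 1, and did not pass. Olfr1324, on the X chromosome, had 1 position 59820 bp upstream of its start site (50486313) with 89.9%, 86.0% and 86.5% in G0 and 71.4% and 67.8% in G5. Both G5 pools were below all G0 pools, and it fell by 17.9 points (limma, adjusted p = 0.0444).

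The other odorant receptor positions listed as lower did not pass limma. At Olfr331 (chromosome 11, 58509293) the G0 pools had 85.9%, 83.1% and 91.3%, G5 pool 1 had 93.8% and G5 pool 2 had 30.4%. The groups overlapped there, and without G5 pool 2 the difference of -24.7 points became 7.07. At Olfr358 (chromosome 2, 37025209) the G0 pools had 85.2%, 75.7% and 74.7% and the G5 pools 69.2% and 44.4%. G5 pool 2 was again the lower, and the difference of -21.7 points had an adjusted p of 0.0649 in limma and was -9.29 points without G5 pool 2. Olfr153, in a CpG island 5950 bp upstream of its start site (chromosome 2, 87526085), had 30.1%, 34.9% and 45.2% in the G0 pools and 9.09% and 31.1% in the G5 pools. There the low value was that of G5 pool 1, the groups overlapped, and the difference of -16.6 points was -5.58 without that pool. Olfr1123, 122563 bp away on the same chromosome, differed by -17.5 points with the groups apart (limma, adjusted p = 0.0617). Olfr811 differed by -10.4 points with the groups apart and Olfr181 by -11.2 points with overlap, which became 9.28 points without G5 pool 2. Of those listed as higher, Olfr720 stood at 81.2%, 85.9% and 96.4% in the G0 pools and at 100% in both G5 pools. Olfr744 had 73.3%, 70.6% and 89.4% in the G0 pools and 87.9% and 98.4% in the G5 pools, with overlap and a difference of 15.4 points that was 10.1 without G5 pool 2, and its converted 50-base sequence occurs 3 times in the genome.

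Among vomeronasal receptors of the first class, Vmn1r53 had 3 positions 8879 to 8890 bp upstream of its start site on chromosome 6. They are shown within 60 bases (chr6:90233292-90233351, plus strand of GRCm38.p6), since neighbouring CpGs in this stretch differ in level, with the 3 listed CpGs in capitals.
Vmn1r53 upstream: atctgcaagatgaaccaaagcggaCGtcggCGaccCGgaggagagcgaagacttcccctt

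At the middle CpG of Vmn1r53 (90233322) the G0 pools had 44.1%, 27.6% and 47.2% and the G5 pools 66.7% and 76.5%. The groups were apart, and the position rose by 32 points (limma, adjusted p = 0.0442). The first (90233316) rose by 21.0 points (limma, adjusted p = 0.0498), and the last (90233327), which began at 83.9% ± 7.97 (SD, n = 3) in G0, was apart by 11.2 points without passing (limma, adjusted p = 0.111), or by 6.61 points without G0 pool 2. Vmn1r13, on the same chromosome, rose from 31.5% ± 1.80 (SD, n = 3) to 49.8% ± 5.83 (SD, n = 2) at 57199763, with G0 pools at 33.5%, 30.5% and 30.3% and G5 pools at 54.0% and 45.7% (limma, adjusted p = 0.0444). Vmn1r28 and Vmn1r72 stood at 88.8% ± 6.50 and 88.1% ± 6.68 (SD, n = 3) in G0 and at 100% and 99.0% in G5, and did not pass.

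The largest fall in this class was at Vmn1r236, where 1 position 13139 bp downstream of the start site lay in a masked repeat on chromosome 17. Its surroundings are shown for that reason (chr17:21299641-21299700, plus strand of GRCm38.p6), with the listed CpG in capitals.
Vmn1r236 position: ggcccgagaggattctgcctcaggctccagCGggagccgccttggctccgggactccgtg

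The G0 pools had 97.0%, 83.6% and 82.8% at this Vmn1r236 position, and the G5 pools 53.4% and 60.7%. The groups did not overlap, and the level fell by 30.7 points (limma, adjusted p = 0.0426). Vmn1r76 had 89.8%, 75.7% and 80.9% in the G0 pools and 79.8% and 51.6% in the G5 pools. Only G5 pool 2 was below the G0 pools there, and the difference of -16.5 points was -2.35 without it.

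Of the second class, Vmn2r62 (chromosome 7, 42750370) stood at 61.5%, 53.4% and 61.8% in the G0 pools and at 37.3% and 40.7% in the G5 pools. It fell by 19.9 points with the groups apart (limma, adjusted p = 0.0444). The pseudogene Vmn2r-ps11 (chromosome 3, 64795004) had 100%, 100% and 92.6% in G0, with 31.8% in G5 pool 1 and 100% in G5 pool 2. Its difference of -31.6 points was 2.47 without G5 pool 1. Vmn2r6, 246667 bp away, had 100% in G5 pool 1 and 66.2% in G5 pool 2, against 100%, 92.8% and 98.5% in G0, and its difference of -14.0 points became 2.90 without G5 pool 2. Vmn2r9 had 85.8%, 77.4% and 78.7% in the G0 pools and 59.0% and 71.6% in the G5 pools, a difference of -15.4 points that was -9.11 without G5 pool 1. Vmn2r83 had 100%, 100% and 98.3% in G0 against 92.9% and 82.2% in G5, a difference of -11.9 points that was -6.58 without G5 pool 2. The groups were apart at both, and neither passed limma.

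The only taste receptor gene named was Tas1r3, which encodes the subunit shared by the sweet and umami receptors. Both of its rows are strands of 1 CpG, 7388 bp past its start site and within an intron of Dvl1, a gene of Wnt signalling, and 652150 bp from the end of chromosome 4. The site is shown because its G0 pools had the largest SD among the receptor-assigned positions (chr4:155855936-155855995, plus strand of GRCm38.p6), with the CpG in capitals.
Tas1r3 site in Dvl1: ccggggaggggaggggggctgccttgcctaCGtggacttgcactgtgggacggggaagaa

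On the plus strand the G0 pools had 6.06%, 80.2% and 85.4% and the G5 pools 95.7% and 91.2%. On the minus strand they had 1.41%, 50.6% and 58.2%, and 94.5% and 96.5%. On both strands G0 pool 1 was nearly unmethylated and stood far below the other G0 pools, and both G5 pools were above all G0 pools. The minus strand passed limma (adjusted p = 0.0468) and the plus strand did not (adjusted p = 0.182). The mean difference over both was 47.5 points, and it was 25.9 points without G0 pool 1. Taar and Tas2r genes had 0 listed positions, of 16 and 40 genes in RefSeq. Of all 2132 receptor genes in RefSeq, 1518 of them protein-coding, 26 had a listed position. Of the 1312 receptor genes with a RefSeq promoter, 23 had a listed position, against 2019 of all 27025 genes with a RefSeq promoter (7.47%). Positions that were read but not called are not listed, so how many receptor genes were read at all is unknown.

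**Figure D4:**
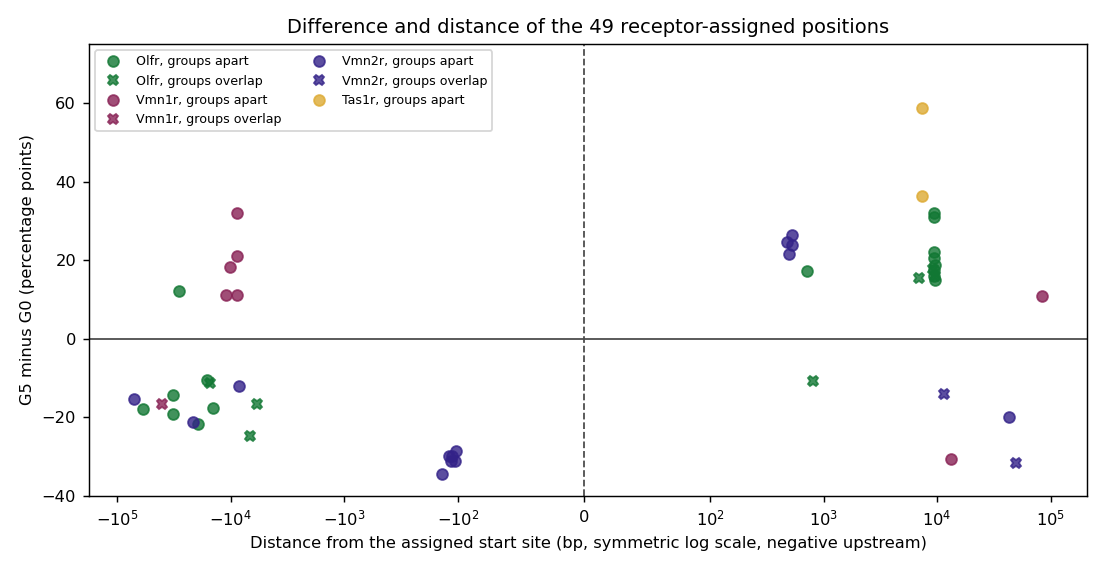
Difference between G5 and G0 means in percentage points against the signed distance in bp from the assigned start site, on a symmetric log axis, for the 49 positions. Colours mark the receptor family, circles positions where the pools of the groups are apart and crosses positions where they overlap. The positions nearest to a start site are those of Vmn2r29, from -138 to 526 bp, and Olfr1419, at 710 and 808 bp.

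By family, 13 positions of 4 Olfr genes were listed as higher and 10 of 9 Olfr genes as lower, and limma passed 5 and 2 of them, where 33.2% of all listed higher and 33.0% of all listed lower positions passed. Of Vmn1r positions, 3 of 6 higher and 1 of 2 lower ones passed. Of Vmn2r positions, 1 of 4 higher and 8 of 12 lower ones passed, where 6 of the 8 are the CpGs upstream of the RefSeq Vmn2r29 start site. The 2 dense blocks at Olfr1394 and Vmn2r29 made up 20 of the 49 positions. Without both genes, 11 higher positions averaged 66.9% ± 6.57 (SD, n = 3) in the G0 and 89.1% ± 0.228 (SD, n = 2) in the G5 pools. For the 18 lower ones the G0 and G5 means were 86.0% ± 2.29 (SD, n = 3) and 68.0% ± 3.95 (SD, n = 2), and limma passed 5 in each direction. The receptor positions formed 21 loci, taking rows less than 1 Mb apart as 1 locus. Of these, 16 held 1 named gene, and 3 loci held positions of both directions (Vmn2r29 with Vmn2r30, Olfr1419 with Olfr76, Vmn1r72 with Vmn1r76).

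The positions listed as lower were mostly highly methylated in G0. A G0 mean of at least 80% was found at 15 of the 24 lower positions (62.5%), against 34.8% of all listed lower positions. It was found at 5 of the 25 higher ones, against 16.8%. All of these lay outside the Olfr1394 and Vmn2r29 blocks, at 20 of the 29 positions there (69.0%), both directions together. The CpG itself lay in a soft-masked base, that is, in an annotated repeat, at 10 of the 24 lower positions (41.7%), against 7.10% of all listed lower positions, and at 0 of the 25 higher ones, against 6.19%. These 10 were at Vmn2r83, Olfr181, Vmn1r236, Olfr76, Olfr358, Olfr1123, Vmn2r-ps11, Vmn2r30 and Vmn1r76. The groups were apart at 7 of them, against 83.9% of all listed lower positions, and 3 passed limma, against 33.0%. Reads from repeats can align to more than 1 copy, and the part of this in the levels was not tested. A converted 50-base window that occurs more than once was found at 2 of the 49 positions (4.08%), against 0.725% of all listed. These were Vmn2r30, the only such one among the 10 masked positions, and Olfr744, whose CpG is not in a masked base. The 300 bases around a position held a median of 19 CpGs at the higher and 10.5 at the lower positions, against 17 and 12 over all listed higher and lower positions. Masked bases made up a median of 0% of these windows at the higher and 45.8% at the lower positions. Without Olfr1394 and Vmn2r29 the median was 55% over both directions together. Among higher positions, the masked share reached 88.7% at Vmn1r13 and 87.0% at Olfr744. The shares are descriptions, since neighbouring positions share fragments.

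**Figure D5:**
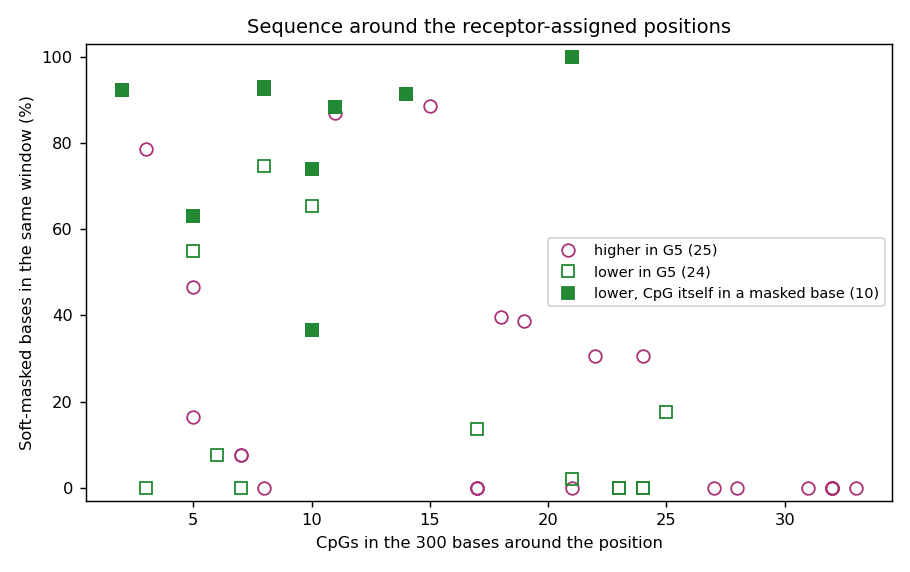
Soft-masked bases in percent against the number of CpGs, both in the 300 bases around each of the 49 positions. Circles are positions listed as higher and squares positions listed as lower in G5, and filled symbols are CpGs that lie in a masked base themselves. All 10 filled symbols are squares.

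G5 pool 2 lay beyond every G0 pool at 25 of 25 higher and 22 of 24 lower receptor positions, and G5 pool 1 at 22 and 19. Over all listed positions G5 pool 2 was beyond them at 94.1% of the higher and 94.3% of the lower positions, and G5 pool 1 at 92.6% and 89.1%. G5 pool 2 alone was beyond the G0 pools at 3 higher and 5 lower receptor positions, against 7.14% and 10.4% of all listed. G5 pool 1 alone was beyond them at 0 and 2, against 5.61% and 5.22%.

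Genes that act beside the receptors were listed at about the rate of all genes. Of 56 genes of olfactory, vomeronasal and taste transduction and of receptor trafficking and choice, 5 had a listed position (8.93%, against 7.47% of 27025 genes with a RefSeq promoter), with 4 positions of 3 genes higher and 3 positions of 2 genes lower. Limma passed 1 of the 4 and 0 of the 3, against 33.2% and 33.0% of all listed positions, and the groups were apart at all 7, against 86.9% and 83.9%. Gng13, a G-protein gamma subunit of olfactory and taste cells, rose from 56.9% ± 6.06 (SD, n = 3) to 79.9% ± 10.2 (SD, n = 2) at -19221 bp from its start site (limma, adjusted p = 0.0464). Its G0 pools had 51.0%, 56.5% and 63.1% and its G5 pools 72.7% and 87.1%. Ano2, a calcium-activated chloride channel, differed by 12.8 points on average over 2 positions, at -41106 and -101 bp from its start site. Pde1c, a cyclic nucleotide phosphodiesterase, differed by 18.2 points at 1 position. Itpr3, the calcium release channel of taste cells, had 95.7%, 98.0% and 100% in the G0 pools and 63.0% and 94.5% in the G5 pools, a difference of -19.2 points that was -3.38 without G5 pool 1. The transcription factor gene Ebf3, averaged over its 2 positions, had 82.8%, 85.7% and 82.1% in G0 against 79.7% and 58.3% in G5. Its difference of -14.5 points was -3.86 without G5 pool 2. None of these 4 passed limma, with smallest adjusted p from 0.0545 to 0.0976.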

How the data were processed

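Per the submitters' processing notes and the design text, Bismark 0.7.11 with Bowtie placed the reads on mm10, and methylKit compared the groups. The deposited tables give, per the file headers, the percent of methylated reads at a position in each of 5 pools, and the authors' p-value and q-value (all q under 0.01). The score is the authors' difference in percentage points (all beyond 10). Coverage is not given, so the depth per value is unknown and no interval was computed. Only positions already called are listed, so shares refer to them. Positions are as the files give them, counted from 0, and all 4688 fall on a CpG of GRCm38.

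Rows were taken by gene symbol, and all of the 26 genes matched the RefSeq table. From the percents, group means and SD were computed, and limma 3.58.1 (R 4.3.3) compared G5 with G0 over all 4688 positions with Benjamini-Hochberg adjustment, at an adjusted p under 0.05. The calls are no independent evidence, because the authors chose the positions on these pools. Permuting 3 and 2 pools gives 10 splits and cannot reach a p below 0.1. Pools are the replicates. Each limma p-value sets the group difference against a spread between pools that is moderated over all 4688 positions. The limma step was tested on simulated data. Genes of RefSeq (GRCm38.p6) and GENCODE M21, repeats, CpGs within 300 bases and matches of the converted 50 bases were computed with Python 3.11.15 and pysam 0.24.0. Sequences are from RefSeq.

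The members, the list of 56 pathway genes and the tests were chosen with earlier results of these data known. All receptor genes are named. Full pool values are given for genes with 3 or more positions, in a promoter or island, listed in both directions, or among the 5 largest mean differences in each direction, and for further genes chosen after their values were seen. Alternatives were a replicate block, leaving out each pool, a logit scale, a mean-variance trend, a q-value under 0.001, a difference of at least 20 points, positions within 10 kb and 1 value per CpG.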

Additional observations from a re-analysis of the deposited data

How the results depend on the processing

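Against 10 higher and 11 lower calls, leaving out 1 pool gave 0 to 11 and 0 to 12, with 3 and 6 without G5 pool 2. The 0 came whichever G0 pool was left out, in fits that called at most 9 of all 4688 positions. The cause was not tested. Without G5 pool 1 the calls were 11 and 12, of which 2 and 5 were shared with the full fit (all listed 32.2% and 34.2% called), and of those without G5 pool 2, 3 and 3 were shared. A logit scale gave 9 and 12 calls, 6 and 9 shared, and a variance trend 12 and 15, 10 and 11 shared, with 40.3% and 42.6%, and 49.5% and 49.2%, of all listed called. With a G5 pool left out, the lone G5 sample is assumed to vary like the G0 pools. A replicate block left 0 calls in both directions (0 of all 4688 too). The pool numbers give no basis for it (correlation of deviations 0.0124 and 0.0476). In limma with the block, 12 and 13 receptor positions were at an unadjusted p under 0.05. The full fit had 16 and 17, with 1799 of all 2618 higher and 1359 of all 2070 lower positions. The mean difference kept its sign throughout, from 18.2 to 25.6 points at the higher and from -24.1 to -18.4 at the lower positions with single pools left out. The positions were chosen by direction on these pools, and leaving out a pool cannot lower the number at which the groups are apart. That number was 22 to 25 at the higher and 17 to 22 at the lower positions.

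At a difference of at least 20 points in the authors' deposited table, 11 higher and 11 lower positions remained in number, with 11 and 10 apart and mean differences of 29.9 and -27.5. A q-value under 0.001 kept 12 lower positions, 9 apart, at -25.9 points. Within 10 kb of a start site there were 10 lower positions, 7 apart, 6 called, at -24.9 points. Without Olfr1394 and Vmn2r29, chosen after seeing the data, 11 higher positions had 10 apart and 5 calls, and the lower ones 11 apart and 5 calls. With no such limits, the groups were apart at 86.9% of all listed higher and 83.9% of all listed lower positions. Limma called 33.2% and 33.0% of them. With single pools left out, the direction reversed at the lower Olfr1419 position (-22.3 to 0.689) and Olfr331 (-56.4 to 7.07) without G5 pool 2, and at Vmn2r-ps11 (-65.7 to 2.47) without G5 pool 1. It also reversed at Olfr181 (9.28) and Vmn2r6 (2.90) without G5 pool 2, outside the genes followed through every alternative. The cause was not tested. Of 76 summary values, 28 moved and 48 did not, and of 65 values for single genes 13 moved, 3 reversed and 49 did neither, where moved means by over 1.5 times for a count and by 1 SD between pools or more for a difference.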
